A study of Bos grunniens with 18 samples.

Results

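This report describes *ADAMTS1* and *ADAMTS5*, the only genes from a set of 6 ADAMTS proteases and the proteoglycan versican that could be read from the ovarian expression rows analysed here. The set was chosen by gene symbol and held *ADAMTS1*, *ADAMTS2*, *ADAMTS4*, *ADAMTS5*, *ADAMTS9*, *ADAMTS12* and *VCAN*, the versican gene. Of these 7 genes, 2 had a row among the 173 genes with values, and the other 5 were not analysed here.

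The data came from ovaries of healthy yaks (*Bos grunniens*) of the same age, collected at slaughter in anestrus (April, YO-A), estrus (August, YO-F) and pregnancy (December, YO-P). Each stage had 3 input RNA-seq libraries made from poly(A) RNA, and, from the same stage, libraries of RNA precipitated with an antibody against N6-methyladenosine (m6A), a methyl mark on adenosines of mRNA. No animal was treated or carried a modified gene. Stage and season cannot be told apart, since all ovaries of a stage came from the same month. The study left out YO-F2, an estrus library, because it lay apart from the other samples in a principal component analysis. The values of YO-F2 are given apart below. These are whole pieces of ovary, and in bulk RNA fewer cells of a type and less RNA per cell cannot be told apart. Of 57 marker genes of ovarian and other cell types, 0 were among the 173 genes, so the cell composition of the pieces was not checked.

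ADAMTS proteases are secreted zinc enzymes that cut proteins of the extracellular matrix. *ADAMTS1*, *ADAMTS4*, *ADAMTS5* and *ADAMTS9* belong to the group that cleaves versican and aggrecan, large proteoglycans that hold water and bind hyaluronan, whereas *ADAMTS2* trims procollagens. In mammalian follicles, *ADAMTS1* is known to be induced in granulosa cells by the ovulatory surge of luteinizing hormone through the progesterone receptor, and versican in the expanding cumulus matrix is one of its substrates. *ADAMTS5* is best known as an aggrecan-cleaving enzyme of cartilage.

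The pair are neighbours in the yak genome. In the coordinates of the authors' table, which follow the *Bos grunniens* genome they aligned to and whose assembly name is not given in the sources used here, *ADAMTS1* (ENSBGRG00000000068) lay on the minus strand of chromosome 1 from 28754201 to 28762686, a span of 8486 bases. *ADAMTS5* (ENSBGRG00000000069) lay on the same strand from 28866712 to 28926010 and spanned 59299 bases. The gap between them was 104025 bases, with 0 rows of the expression table inside it. In the RefSeq annotation of the Bosgru_T2T1.0 assembly, which is another build and from which no coordinates were taken, 1 gene lies between them and 0 of the genes between them code for protein. The deposited annotation gave *ADAMTS1* 15 Gene Ontology terms and *ADAMTS5* 11 terms, of which 5 were the same, namely metalloendopeptidase activity, metallopeptidase activity, proteolysis, heparin binding and zinc ion binding. Ovulation from ovarian follicle, basement membrane and negative regulation of angiogenesis were among the terms of *ADAMTS1* that *ADAMTS5* did not have.

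*ADAMTS1* was one of the most abundant transcripts among these genes, and *ADAMTS5* was a low one. Expression is given as FPKM, sequenced fragments scaled to the exon length of each gene and to the number of reads mapped per library. The division by length makes the levels of different genes roughly comparable. Other differences between genes in how they are captured and sequenced were not checked. *ADAMTS1* averaged 137 ± 56.8 FPKM (SD, n = 8 libraries without YO-F2), and *ADAMTS5* averaged 1.64 ± 0.408 FPKM (SD, n = 8). In each of these 8 libraries, *ADAMTS1* ranked between place 2 and place 10 of the 173 genes, and *ADAMTS5* between place 90 and place 108. *ADAMTS1* was 32.5 to 94.7 times the median gene of its library, and *ADAMTS5* was 0.236 to 0.771 times that median. The table holds no counts, so the number of fragments behind a value is unknown and no counting error is given.

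*ADAMTS1* had its highest level in an estrus library, but the stages overlapped. In YO-A, *ADAMTS1* had an FPKM of 79.4 in replicate 1, 136.8 in replicate 2 and 106.5 in replicate 3, with a mean of 107.6 ± 28.7 (SD, n = 3). In YO-F, it had 259.3 in replicate 1 and 132.3 in replicate 3, with a mean of 195.8 ± 89.8 (SD, n = 2). In YO-P, it had 94.9, 114.0 and 169.5 in replicates 1, 2 and 3, with a mean of 126.1 ± 38.8 (SD, n = 3). YO-F1 stood above all other libraries, but YO-F3 fell below YO-A2 and below YO-P3. The stage means ran from anestrus through pregnancy to estrus, and no neighbouring pair in that order was separated beyond the spread of its libraries.

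*ADAMTS5* was nearly level in anestrus and estrus, and its lowest value was in a pregnant ovary. In YO-A, *ADAMTS5* had an FPKM of 1.88 in replicate 1, 1.39 in replicate 2 and 1.92 in replicate 3, with a mean of 1.73 ± 0.295 (SD, n = 3). In YO-F, it had 1.92 in replicate 1 and 1.87 in replicate 3, with a mean of 1.90 ± 0.0368 (SD, n = 2). In YO-P, it had 1.79, 1.61 and 0.741 in replicates 1, 2 and 3, with a mean of 1.38 ± 0.559 (SD, n = 3). Both estrus libraries were above all 3 pregnancy libraries, although the nearest of them, YO-F3 and YO-P1, differed little, and YO-P3 was far below the rest. The stage means ran from pregnancy through anestrus to estrus, and the libraries of each neighbouring pair in that order overlapped.

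**Figure D1:**
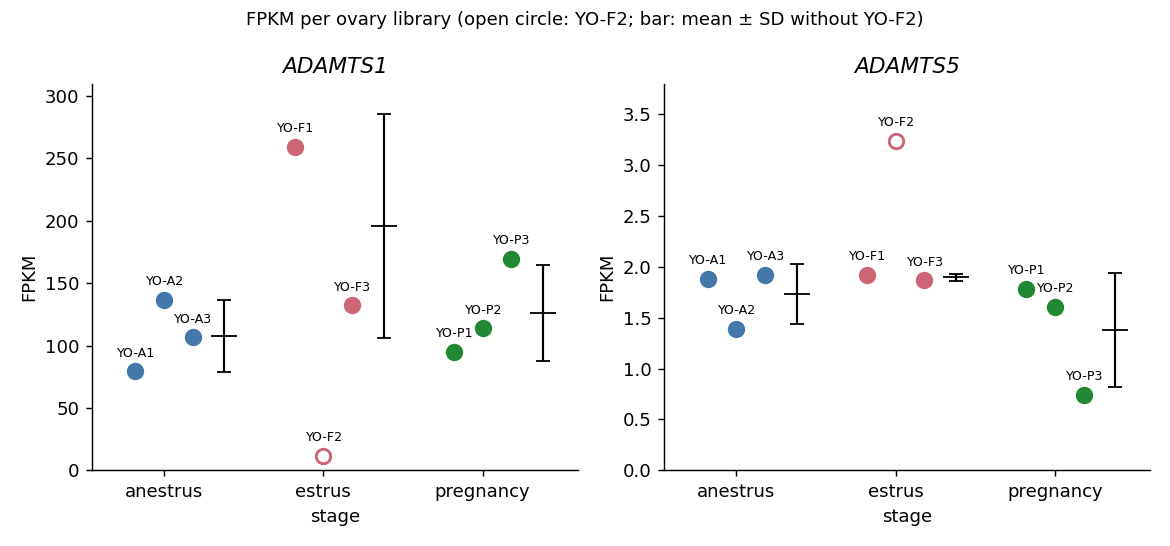
FPKM of *ADAMTS1* (left) and *ADAMTS5* (right) in each of the 9 input libraries, by stage, on linear axes that start at 0. Filled circles are libraries used in the comparisons, open circles are YO-F2, and black bars give the mean ± SD without YO-F2. YO-F2 is the lowest library for *ADAMTS1* (11.6) and the highest for *ADAMTS5* (3.24).

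The comparison of estrus with anestrus (YO-FvsA) asked which genes differ when the ovary becomes active. *ADAMTS1* was 1.76-fold higher in estrus, a log2 fold change of 0.82 (standard error, SE, 0.34, 95% interval 0.042 to 1.59), with an unadjusted p of 0.0409 and an adjusted p of 0.521 from limma. By these values it did not pass the study's standard. That standard asks for a change of 1 or more on the log2 scale in either direction with an unadjusted p under 0.05. The study applied it to results of edgeR, another test than the limma fit used here. For *ADAMTS5* the log2 fold change was 0.14 (SE 0.42, 95% interval -0.82 to 1.09, adjusted p = 0.945 from limma). Of the 130 genes tested, 2 (1.54%) passed the standard, and of the pair 0 did, with 1 of them, *ADAMTS1*, at an unadjusted p under 0.05, as 12 of the 130 genes (9.23%) were. The libraries of the stages did not overlap in 25 of the 130 genes (19.2%), and overlapped in both *ADAMTS1* and *ADAMTS5*. By exact two-sided permutation of the libraries, p was 0.3 for *ADAMTS1* and 0.8 for *ADAMTS5*, and the smallest p that 2 against 3 libraries allow is 0.1. Adjusted over the 3 comparisons of each gene, the exact p was 0.6 and 0.8.

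The value for *ADAMTS1* rested on single estrus libraries. Its log2 fold change was 0.33 when estrus replicate 1 was left out. Without estrus replicate 3 it was 1.30 and passed the standard. It also passed without anestrus replicate 2, at 1.01. With YO-F2 included, the sign turned and the log2 fold change was -0.51. Where 1 estrus library was left, the test assumed that it varies like the libraries of the other stages.

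The comparison of estrus with pregnancy (YO-FvsP) gave intervals that included 0 for both genes. The log2 fold change of *ADAMTS1* was 0.60 (SE 0.34, 95% interval -0.18 to 1.37, adjusted p = 0.537 from limma). That of *ADAMTS5* was 0.52 (SE 0.42, 95% interval -0.44 to 1.47, adjusted p = 0.739 from limma). Of the 130 genes, 3 (2.31%) passed the standard and 12 (9.23%) had an unadjusted p under 0.05, and of the pair 0 did either. That the estrus libraries of *ADAMTS5* did not overlap with the pregnancy libraries was not unusual, since 35 of the 130 genes (26.9%) had no overlap in this comparison, 26 of them (20%) with estrus above. The exact permutation p was 0.4 for each gene, and 0.6 for *ADAMTS1* and 0.75 for *ADAMTS5* after adjustment. With YO-F2 included, *ADAMTS5* still did not overlap, as was then true of 19 genes (14.6%), 14 of them (10.8%) with estrus above, and its exact p was 0.1, the smallest that 3 against 3 libraries allow (adjusted 0.3). Without pregnancy replicate 3, *ADAMTS5* was left with a log2 fold change of 0.15, while *ADAMTS1* had 0.83. For *ADAMTS1*, the log2 fold change was 0.11 without estrus replicate 1, 1.08 without estrus replicate 3, where it passed the standard, and -0.73 with YO-F2 included.

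Pregnancy against anestrus (YO-PvsA) does not involve the estrus libraries in its means. The log2 fold change of *ADAMTS1* was 0.22 (SE 0.31, 95% interval -0.47 to 0.92, adjusted p = 0.910 from limma). That of *ADAMTS5* was -0.38 (SE 0.38, 95% interval -1.23 to 0.47, adjusted p = 0.910 from limma). The estimates had opposite signs, but both came close to 0 without pregnancy replicate 3, at -0.013 for *ADAMTS1* and -0.016 for *ADAMTS5*. Of the 130 genes, 3 (2.31%) passed the standard and 4 (3.08%) had an unadjusted p under 0.05, and of the pair 0 did either. The stages overlapped in both genes, while 12 of the 130 genes (9.23%) had no overlap. The exact permutation p was 0.6 for *ADAMTS1* and 0.5 for *ADAMTS5* (0.6 and 0.75 after adjustment). Over the 130 genes, the median log2 fold change was 0.072 for YO-FvsA, 0.067 for YO-FvsP and -0.032 for YO-PvsA. The 3 comparisons share libraries, so they are not independent of each other.

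**Figure D2:**
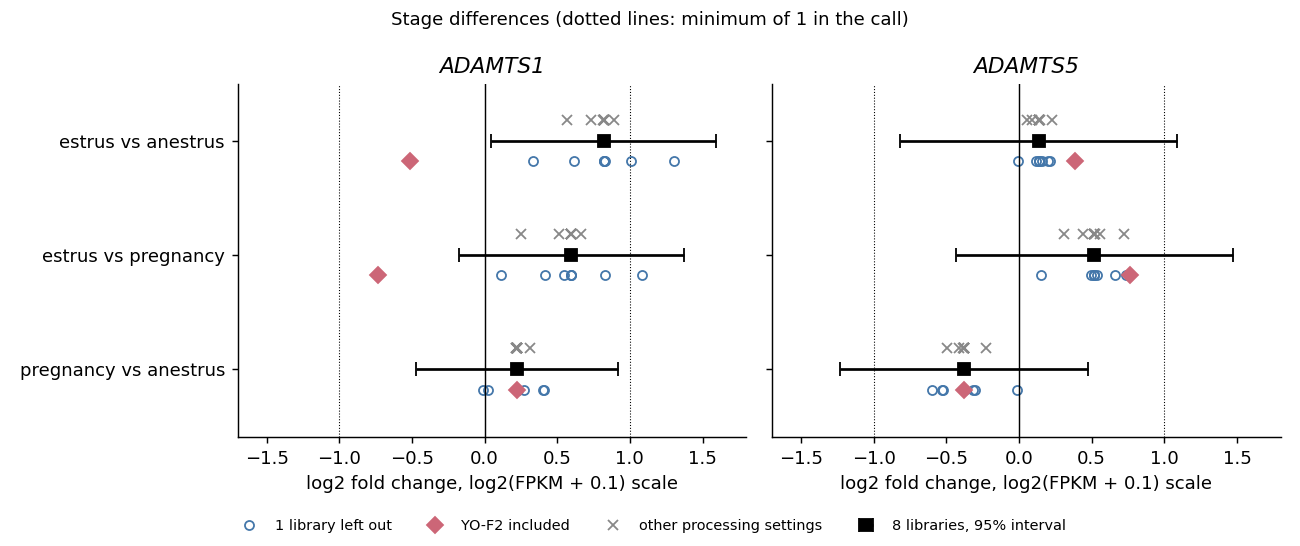
Log2 fold change of *ADAMTS1* (left) and *ADAMTS5* (right) in the 3 stage comparisons, on the log2(FPKM + 0.1) scale. Black squares with bars are the values of the 8 libraries with their 95% intervals, open circles leave out 1 library, diamonds include YO-F2 and crosses are other processing settings. For *ADAMTS1*, the diamonds lie at -0.51 and -0.73 in the comparisons that use estrus, on the other side of 0 from the squares.

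*ADAMTS1* varied more between libraries than the median gene. Its coefficient of variation over the 8 libraries was 41.6%, and 18 of the 105 genes whose mean FPKM reached 1 had a larger one. The median of these genes was 19.8%. Without YO-F1 it was 25.1%, and 27 genes had a larger one. For *ADAMTS5* the coefficient was 24.8%, and 32 genes had a larger one. Without YO-P3 it was 11.2%, below the median of 19.6% over those libraries, and 89 genes had a larger one. Leaving out a library here was chosen after the values were seen. Differences between the stage means made up 41.9% of the variation (sum of squares on the log2 scale) of *ADAMTS1* and 28.9% of that of *ADAMTS5*. The median over the 130 genes was 26.7%, and 42 genes had a larger share than *ADAMTS1*. With YO-F2 included, the share of *ADAMTS1* was 6.72% and that of *ADAMTS5* was 40.4%.

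The pair did not keep a fixed ratio. *ADAMTS1* was 42.2, 98.2 and 55.4 times as abundant as *ADAMTS5* in YO-A1, YO-A2 and YO-A3. It was 134.9 times as abundant in YO-F1 and 70.8 times in YO-F3, and 53.1, 70.9 and 228.7 times in YO-P1, YO-P2 and YO-P3. The pregnancy libraries alone thus spanned 53.1 to 228.7, and YO-P3, with the lowest *ADAMTS5* level and the second highest *ADAMTS1* level, had the largest ratio. On the log2 scale, the mean ratio of estrus exceeded that of anestrus by 0.67 (exact two-sided permutation p = 0.4) and that of pregnancy by 0.038 (exact p = 1.0), and that of pregnancy exceeded that of anestrus by 0.64 (exact p = 0.6). After Benjamini-Hochberg adjustment over the 3 comparisons, the exact test gave p = 0.9, 1.0 and 0.9. Single libraries moved these differences. That of estrus against anestrus was 0.21 without estrus replicate 1 and 0.41 without anestrus replicate 1, and 1.14 without estrus replicate 3 and 1.01 without anestrus replicate 2. That of pregnancy against anestrus was 0.0029 without pregnancy replicate 3 and 0.37 without anestrus replicate 1, and 1.06 without pregnancy replicate 1 and 0.98 without anestrus replicate 2. For estrus against pregnancy it was between -0.43 (without estrus replicate 1) and 0.67 (without pregnancy replicate 3). The ratio and the libraries left out of it were chosen after the levels were seen.

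**Figure D3:**
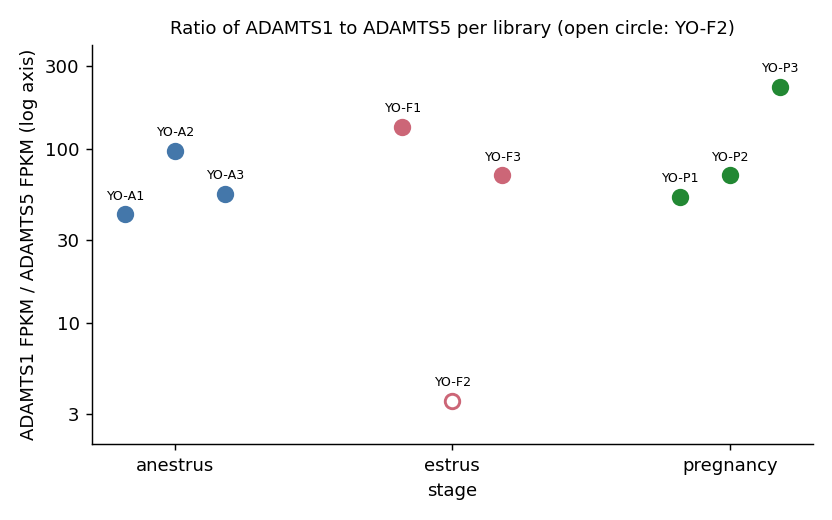
FPKM of *ADAMTS1* divided by FPKM of *ADAMTS5* in each of the 9 input libraries, by stage, on a log axis. Filled circles lie between 42.2 and 228.7 in all stages, and the open circle of YO-F2 lies at 3.57.

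In YO-F2 the pair moved in opposite directions, and their levels came closer together. *ADAMTS1* had an FPKM of 11.6 there, 0.0939 times the median of the other 8 libraries. On the log2(FPKM + 0.1) scale, its distance from the lowest of them was -2.77. *ADAMTS5* had 3.24, 1.77 times the median of the others and 0.72 above the highest of them on that scale. The ratio of *ADAMTS1* to *ADAMTS5* in this library was 3.57.

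Other genes moved in YO-F2 as well. Of the 130 genes tested, 39 were below and 32 above the range of the other 8 libraries, together 54.6%, so lying outside that range is common in this library. *ADAMTS1* was near the lower end of all genes, with 4 genes deviating further downward from the median of the others, while 21 genes deviated further upward than *ADAMTS5*. The median deviation of the 130 genes was -0.078 on the log2 scale. Relative to the median gene of the library, *ADAMTS1* stood at 6.76 in YO-F2 against 32.5 to 94.7 elsewhere, and *ADAMTS5* at 1.89 against 0.236 to 0.771. In rank, *ADAMTS1* took place 43 and *ADAMTS5* place 77 of the 173 genes.

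**Figure D4:**
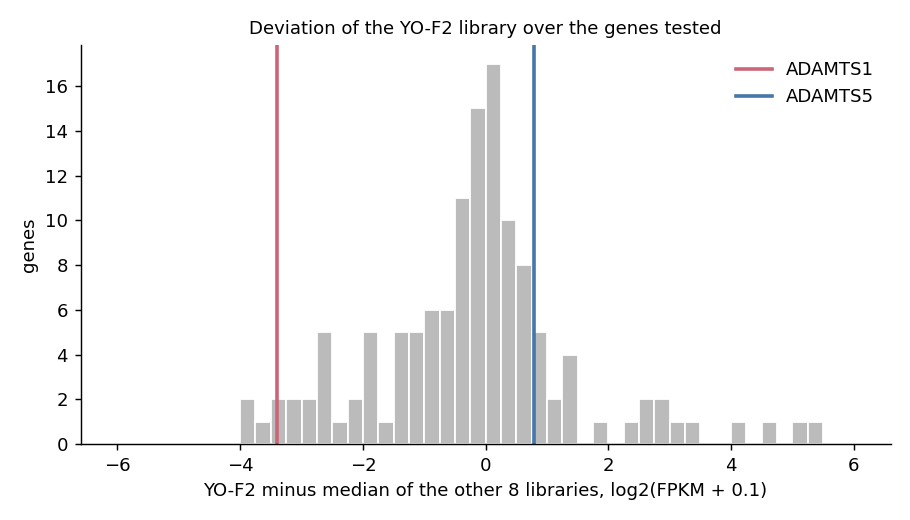
Histogram of the deviation of YO-F2 from the median of the other 8 libraries for the 130 genes tested, on the log2(FPKM + 0.1) scale. *ADAMTS1* (red line, -3.40) lies in the lower tail, with 4 genes below it, and *ADAMTS5* (blue line, 0.79) lies on the upper side, with 21 genes above it.

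The transcripts of the pair carried m6A peaks in the pregnancy list. A peak is a stretch of transcript with more reads in the m6A immunoprecipitation than in the input, and its fold enrichment is the ratio between them. The deposited lists are 1 per stage, so m6A of single animals was not analysed here and no test was made. The pregnancy list analysed here held 282 peaks in 176 genes, 4 of them in *ADAMTS1* and *ADAMTS5*. The list runs through chromosome 1 and then starts again at a lower position. The 4 peaks are in the second run, which held 44 peaks in 29 genes. The anestrus and estrus lists analysed here, with 9 and 18 peaks, end before such a second run, so m6A of the pair in those stages was not analysed.

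*ADAMTS1* had a peak near each end of its transcript. The larger one lay in the 3′ UTR from 28754681 to 28755281 and was 601 bases wide, 480 to 1080 bases from the end of the gene, with a fold enrichment of 4.71. Its log10 p of -988 was the second strongest of the 282 peaks, although by fold enrichment it took place 134. The other peak lay in the 5′ UTR from 28762356 to 28762506, 180 to 330 bases from the start of the gene, with a fold enrichment of 2.93 and a log10 p of -83.6. Of the 176 genes, 7 had both a peak annotated to the 5′ UTR and a peak annotated to the 3′ UTR.

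*ADAMTS5* had both of its peaks near the end of the gene. The peak from 28867994 to 28868054 lay in the 3′ UTR, was 61 bases wide and had a fold enrichment of 3.00 with a log10 p of -6.82. The peak from 28868501 to 28868650 lay in exon 10 of 10 and had a fold enrichment of 1.82 with a log10 p of -3.58. Both lay 1282 to 1938 bases from the end of the gene, in a gene whose genomic span, introns included, is 59299 bases. Their place along the spliced transcript was not computed.

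By fold enrichment, these 4 peaks were not prominent in the list. They took places 134, 200, 209 and 258 of 282, and 3 of the 4 were below 4.43, the median of all peaks. The median was 4.32 over 58 peaks in 3′ UTRs, 4.50 over 28 peaks in 5′ UTRs and 4.48 over 196 peaks in other exons. All 4 peaks had a log10 false discovery rate of -2 or below, as 218 of the 282 peaks (77.3%) did. In pregnancy the mean FPKM was 126.1 for *ADAMTS1* and 1.38 for *ADAMTS5*, and the part of the expression level in the p-values of their peaks was not tested.

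**Figure D5:**
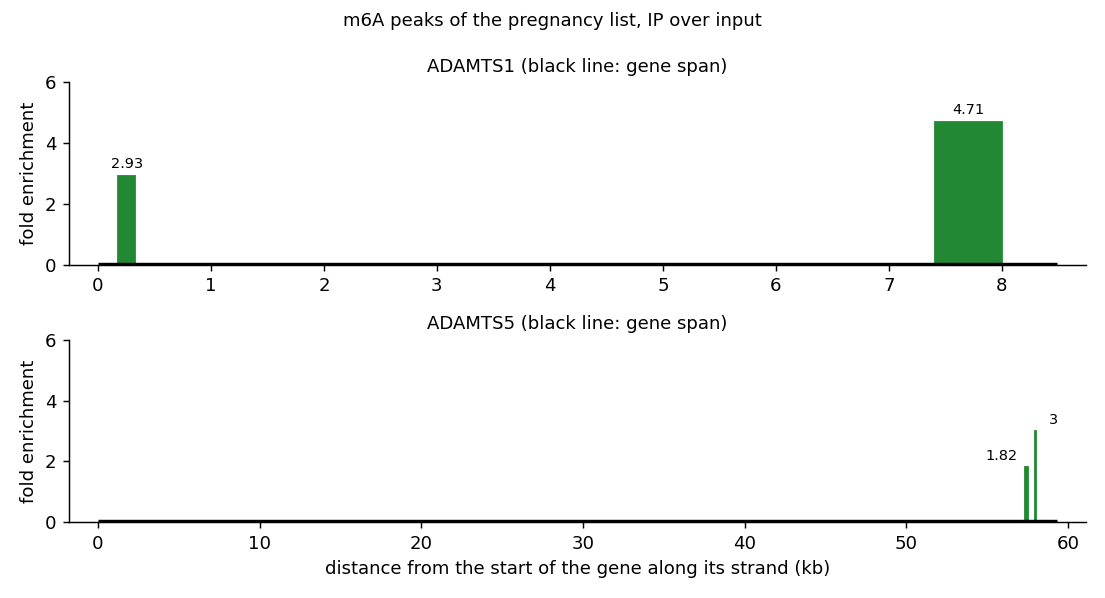
m6A peaks of the pregnancy list along *ADAMTS1* (top) and *ADAMTS5* (bottom), by distance in kb from the start of the gene along its strand. Bar height is the fold enrichment of immunoprecipitation over input, bar width is the span of the peak and the black line is the gene. *ADAMTS1* has peaks near both ends (2.93 and 4.71), and *ADAMTS5* has both near its end (1.82 and 3.00).

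The genes most like each member over the 8 libraries without YO-F2 were sought among 81 other genes with a symbol and a mean FPKM of 1 or more, by Pearson correlation of log2(FPKM + 0.1). For *ADAMTS1* these were *RETREG2* (r = 0.909), *MRPS33* (r = 0.891) and *USP16* (r = 0.806). For *ADAMTS5* they were *FAM207A* (r = 0.779), *AGPS* (r = 0.696) and *CGGBP1* (r = 0.607). *RETREG2* and *MRPS33* were highest in YO-F1, at 112.8 and 120.2, as *ADAMTS1* was. *FAM207A* was highest in YO-F1 and lowest in YO-P3, at 14.4 and 7.64, as *ADAMTS5* was. With YO-F2 included, the r with *ADAMTS1* was 0.316 for *RETREG2*, 0.531 for *MRPS33* and -0.396 for *USP16*, and the r with *ADAMTS5* was 0.810 for *FAM207A*, 0.677 for *AGPS* and -0.492 for *CGGBP1*. The pair themselves had an r of -0.280 with each other, place 66 of the 81 genes for *ADAMTS1*, and of -0.666 with YO-F2 included. These correlations of 8 libraries were picked as the highest of many and are a description, and all genes of a library share its normalization.

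Little else of the pathway could be read. Lists of other ADAMTS proteases, ADAMTS-like proteins and inhibitors, proteoglycan substrates, hyaluronan matrix partners of versican, procollagens and their processing, chondroitin sulfate synthesis and regulators of *ADAMTS1* held 72 genes, of which 1 was among the 173. This was *PCOLCE2*, an enhancer of procollagen processing. Its FPKM was 33.9, 19.0 and 16.3 in YO-A1 to YO-A3, 9.19 and 16.0 in YO-F1 and YO-F3, and 21.6, 15.8 and 18.1 in YO-P1 to YO-P3, with 14.6 in YO-F2. *PCOLCE2* was lowest in YO-F1, the library with the highest *ADAMTS1*, and its estrus libraries lay below all anestrus libraries, in a comparison where 19.2% of the 130 genes had no overlap, while the stages overlapped in the other two comparisons. Its log2 fold change was -0.85 for YO-FvsA, -0.59 for YO-FvsP and -0.26 for YO-PvsA (adjusted p = 0.502, 0.537 and 0.910 from limma), and it passed the study's standard in 0 of the 3 comparisons.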

How the data were processed

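Input libraries of poly(A) RNA from yak ovary (3 per stage) and m6A peak lists (1 per stage) were analysed. The authors filtered reads with fastp, aligned them with HISAT2 (2.0.4 in the submitters' processing notes) to the *Bos grunniens* genome, and deposited StringTie FPKM values. The authors deposited the fold enrichment of each peak as a ratio of immunoprecipitation to input, and the p-value and FDR of each peak as log10 score columns. Peaks were annotated with ChIPseeker 1.18.0, and the peak caller is not given in the sources used here. Tables of the authors' own comparison of peaks between stages (log2 fold changes, p-values) were not used.

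The files were analysed in part (173 genes for expression). These genes were not a random sample of the yak genes, so ranks and shares among them describe these genes only. The 130 genes whose FPKM averaged 0.1 or more over the 9 libraries were compared as log2(FPKM + 0.1) with limma 3.58.1 in R 4.3.3, with a trend on mean expression and a single model of the 3 stages over the 8 libraries without YO-F2. The paper's edgeR test needs counts, which FPKM values do not hold. A gene was called by a log2 fold change of 1 or more in either direction with an unadjusted p under 0.05. On the log2(FPKM + 0.1) scale the change of low genes is understated. Adjusted p-values are Benjamini-Hochberg values over the 130 genes. The fit was tested on simulated data with changes larger than those of *ADAMTS1* and *ADAMTS5* here, so that test does not cover changes of their size. Other values used Python 3.11.15, scipy 1.17.1 and matplotlib 3.10.9. Replicates are different ovaries, and the labels give no sequencing batch.

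The members and lists were chosen with earlier results of these data known. The text names the members, the most similar genes by a fixed rule and list genes that have a row. Alternatives were other pseudocounts, minimums and scalings, YO-F2 included, a fit of 2 stages, no trend, a replicate block and each library left out.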

Additional observations from a re-analysis of the deposited data

Results flagged for a closer look

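*ADAMTS5* had an FPKM of 3.24 in YO-F2, a library that enters no stage comparison, and this was above all of the other 8 libraries, which lay between 0.741 and 1.92.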

How the results depend on the processing

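No processing setting with the 8 libraries moved *ADAMTS1* or *ADAMTS5* past the study's standard, and the signs held under other pseudocounts, minimums, scalings, the fit of 2 stages and moderation without the trend. The unadjusted p of *ADAMTS1* in YO-FvsA from limma did not hold under 0.05 in all of them. It was 0.074 with no minimum, 0.15 with quantile normalization, 0.062 with a replicate block and 0.078 without the trend. Under other pseudocounts, a minimum mean FPKM of 1, median-ratio scaling and the fit of 2 stages it stayed under 0.05. With YO-F2 included, *ADAMTS1* reversed to -0.51 in YO-FvsA and -0.73 in YO-FvsP, and the log2 ratio of *ADAMTS1* to *ADAMTS5* reversed to -0.92 and -1.55. With 1 library left out, members called ranged from 0 to 1 in YO-FvsA and in YO-FvsP. In these fits, *ADAMTS1* ranged from -0.013 to 0.41 in YO-PvsA and *ADAMTS5* from -0.0046 to 0.21 in YO-FvsA, with the lowest values without pregnancy replicate 3 and without anestrus replicate 2, and the log2 ratio ranged from -0.43 to 0.67 in YO-FvsP. That ratio reversed in YO-FvsP without estrus replicate 1 (-0.43), pregnancy replicate 1 (-0.38) or pregnancy replicate 2 (-0.17).

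The count of genes called was 2 for YO-FvsA, 3 for YO-FvsP and 3 for YO-PvsA. It was 1, 1 and 1 with a pseudocount of 1, and 5 in both YO-FvsA and YO-FvsP with YO-F2. In YO-FvsA it was 1 with a minimum mean FPKM of 1, with median-ratio scaling and with only the 2 stages. By an adjusted p under 0.05 from limma it was 0, 0 and 0 in the main fit, while 12, 12 and 4 genes had an unadjusted p under 0.05. With 1 library left out it ranged from 1 to 9, 3 to 9 and 1 to 4, and it was 9 in YO-FvsA and in YO-FvsP without estrus replicate 3. Other changes beyond 1.5 times were 4 in YO-FvsA and 1 in YO-PvsA without anestrus replicate 3, 1 in YO-FvsA without each pregnancy library, and 5 in YO-FvsP without pregnancy replicate 2. By an adjusted p under 0.05 from limma, YO-FvsA had 1 gene with a pseudocount of 0.01, a minimum mean FPKM of 1, median-ratio scaling or only the 2 stages. Among these settings, YO-FvsP had 1 gene with only the 2 stages, and YO-PvsA had 0. The cause of these changes was not tested. With the replicate number as a block, the count of genes called in YO-FvsA was 1, and the log2 fold change of *ADAMTS1* there was 0.89. The numbers mark different animals, and deviations of 7 same-numbered pairs correlated at -0.17 to 0.39 with 1 of them over 0.1, so they were not taken as pairs. The strict FDR and overlap with the gene span left the 4 peaks in pregnancy. Counts of peaks in the other stages and peaks shared between stages gave no value, since those lists end before these genes. FPKM without counts limits what can be said of *ADAMTS5*.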
